A study of Drosophila melanogaster with 6 samples.

Results

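A group of 43 protein-coding genes had markedly lower transcript levels in the larval central nervous system (CNS) of *Alk-YS* mutants of *Drosophila melanogaster* than in that of controls. They were selected on these same measurements, out of the 13416 genes of the deposited comparison table. A gene was a member if it averaged at least 50 normalized counts in the 3 control libraries and if its lowest control library, with 5 added, was at least 2 times its highest *Alk-YS* library, with 5 added. A normalized count is the number of reads assigned to a gene divided by a size factor that puts the libraries on 1 scale. Of the 8227 protein-coding genes with that control mean, 57 met these limits, or 0.693%. The rule then set aside 14 of them by name, namely members of the Cyp, Gst, ppk, Cpr and Lcp families and *NimC1*, *Fbp2* and *Mlc2*. With the groups exchanged, 33 of 8151 genes met the limits, or 0.405%. Because the members were chosen by how they differ between the groups, their differences are given as a description, and no test of them is reported.

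RNA was sequenced in bulk from CNSs dissected from third-instar larvae, between 40 and 45 larvae for a sample, with 3 control and 3 *Alk-YS* libraries. *Alk-YS* flies carry an *Alk* gene edited with CRISPR/Cas9 so that a tyrosine of the kinase domain becomes a serine, and were homozygous according to the methods. The controls are labelled w1118, whereas the methods name a y, vas-Cas9, w1118 stock as the wild-type control of the study, and no animal was treated. With 1 edited line against 1 control stock, the allele and whatever else differs between the 2 stocks cannot be told apart. Alk is the receptor tyrosine kinase bound by the secreted ligand Jelly belly, and it acts through Ras and ERK. In the larval CNS it is known for sparing brain growth when food is short, and its human counterpart is mutated in neuroblastoma. The members do not form 1 pathway. By known roles or by domains named in the deposited table they comprise 11 enzymes, 3 proteins with a trypsin domain, 4 parts of nuclear or ubiquitin machinery, 2 signalling receptors or scaffolds, 5 secreted or extracellular proteins, 1 metal-binding protein and 2 genes known from the male germline. No role is assigned here to the other 15, although *CG15047* among them has a named domain, UBA.

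The libraries held between 18770029 and 22333967 reads assigned to genes, and the members took between 0.15% and 0.158% of them in the controls and between 0.0385% and 0.0497% in *Alk-YS*. Neuronal markers were abundant in every library, with 13 genes summing to between 44760 and 61640 normalized counts. The glial list of 8 genes summed to between 15680 and 21270, and the neuroblast list of 8 genes to between 43430 and 50780. Most of the neuroblast sum was *pros*, at 31090 to 39510. Among the other neuroblast genes, the *Alk-YS* mean was lower than the control mean for *stg* and higher for the rest. Markers of other tissues were present too. The fat body list of 7 genes summed to 62720, 137700 and 18060 in control replicates 1, 2 and 3 and to 17880, 40010 and 6369 in the *Alk-YS* replicates. The muscle list of 14 genes summed to between 4966 and 6389 in the controls and between 3261 and 4281 in *Alk-YS*, without overlap. The 11 hemocyte genes summed to between 13550 and 31100 and between 9817 and 14970. For 6 trachea genes the sums were 9475 to 9819 in the controls and 7940 to 9831 in *Alk-YS*. For 8 ring gland genes they were 15530 to 23000 and 11700 to 22130. The Malpighian tubule list of 6 genes summed to 619.5 to 671.2 in *Alk-YS* and 520.5 to 615.2 in the controls, without overlap. This higher sum rested on *NaPi-T*, at 42.9, 68.0 and 39.4 in the controls and 240.7, 84.3 and 186 in *Alk-YS*. *Best2* and *Irk3* had lower means in *Alk-YS*, at 258.7 and 181.4 against 279.7 and 207.4 in the controls. *ZnT35C* and *salt* were also lower in mean, and *CapaR* was higher. Of 19 midgut enzyme genes in the table, 14 were below 10 normalized counts in every library. The 19 summed to 81.4, 168 and 519.7 in the controls and to 58.1, 128 and 268.8 in *Alk-YS*. In replicate 3 of either group most of the sum was *Jon65Aiv*, at 440 in the control and 211 in *Alk-YS*. The part of other tissues in the members' levels was not tested beyond the values given here, and in bulk tissue fewer cells of a type and less RNA per cell cannot be told apart.

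The size of the difference varied widely among the members. The control mean divided by the *Alk-YS* mean had a median of 4.80 over the 43 genes, was at least 10 in 10 of them and under 3 in 6, with a lowest value of 2.39. Most members were genes of low level. The control mean was below 250 normalized counts in 30 of the 43 (69.8%), against 15.9% of all protein-coding genes that passed the control limit, and at least 1000 in 8 (18.6%, against 44.9%). Of the genes between 50 and 250 normalized counts 2.82% met the limits, compared with 0.243% of those at 1000 or more. The members were also short, with a median exonic length of 1223 bases against 2311, and 67.4% had a single annotated transcript, against 35.2%. A total of 3 had an *Alk-YS* library with no read at all.

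**Figure D1:**
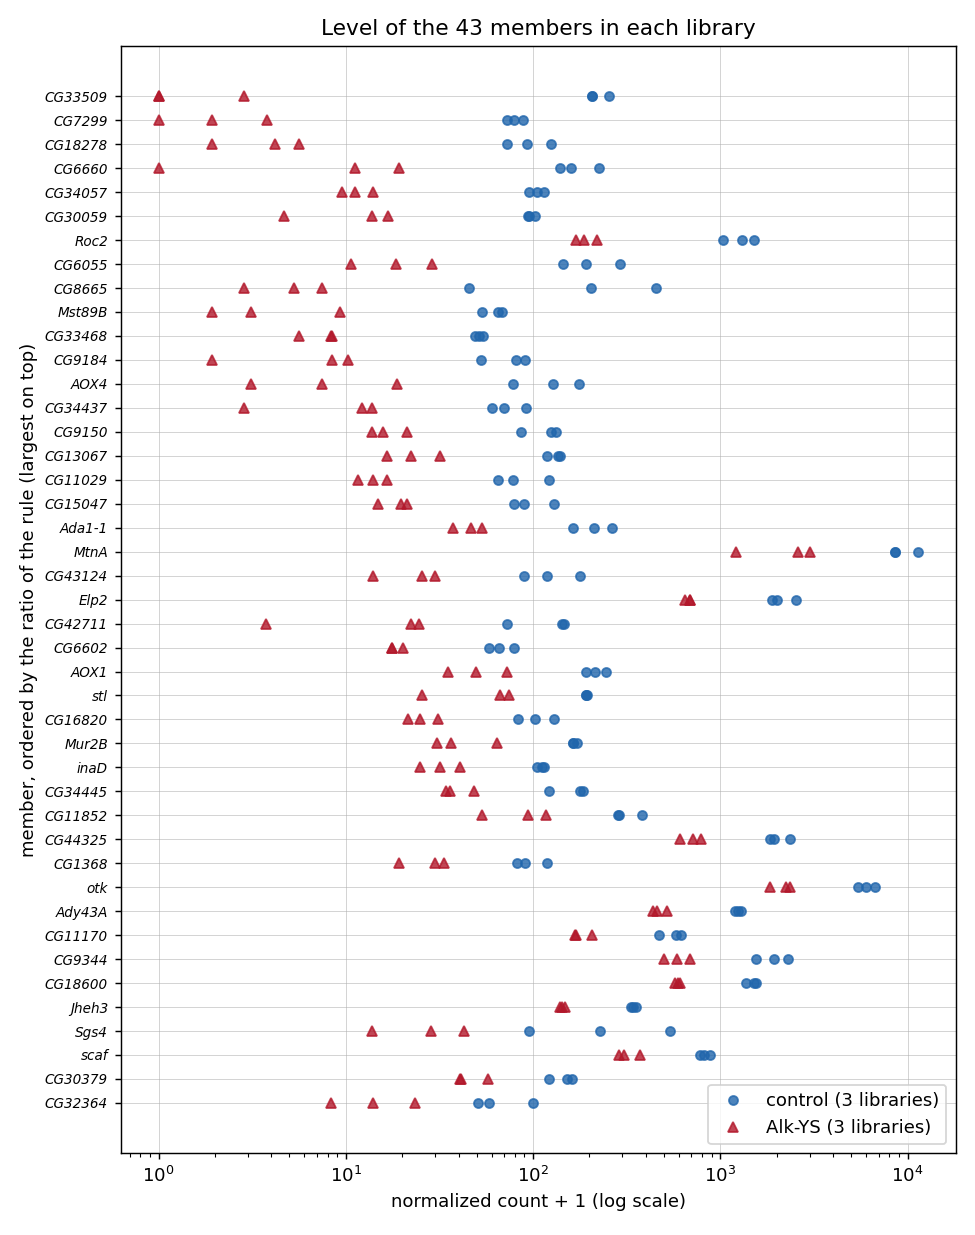
Normalized count plus 1, on a log axis, of each of the 43 members in the 3 control libraries (blue circles) and the 3 *Alk-YS* libraries (red triangles), with members ordered by the ratio that the rule uses. The rule itself keeps the groups apart, and the controls run from 44.3 (*CG8665*) to 11304 (*MtnA*).

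The largest difference was that of *CG33509* (FBgn0053509, BDGP6 2L, bases 21084605 to 21086506, minus strand), a gene with no symbol of its own. Its level was 205, 252 and 206 normalized counts in control replicates 1, 2 and 3 and 0, 0 and 1.86 in *Alk-YS* replicates 1, 2 and 3. No *Alk-YS* library held more than 2 of its reads, so its level was at least 75.6-fold lower when *Alk-YS* is set at 3 reads per library. The gene beside it was nearly silent in the mutant as well. *ppk13*, which encodes a pickpocket subunit of the DEG/ENaC sodium channel class, lies 284 bases away and had 256, 293 and 309 normalized counts in the controls and 2.77, 0 and 0 in *Alk-YS*. It met the limits and is no member only because the rule sets the ppk family aside. The genes next to the pair, *CG33510* and *CG9259*, and *CG33511* beyond the first were too low to be tested, with at most 3.00 normalized counts in any library for *CG33510* and *CG33511* and at most 33.0 for *CG9259*. The nearest tested genes were not called. *tadr* had a log2 fold change (*Alk-YS* over control, on log2 of normalized count plus 1) of -0.22 with an adjusted p of 0.741, and *CG12050* one of -0.14 with an adjusted p of 0.848 (limma with Benjamini-Hochberg adjustment over 9668 genes).

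*CG7299* (2L, bases 10683427 to 10684409) was the other member with at most 3 reads in each *Alk-YS* library. It had 86.9, 78.0 and 71.9 normalized counts in the controls and 0.922, 0 and 2.79 in *Alk-YS*, and was at least 27.0-fold lower by the same reckoning.

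Among the 11 enzymes, 2 neighbouring sulfatase genes stood near the top of the order. Sulfatases remove sulfate groups from sugars, lipids or steroids. *CG18278* and *CG30059* (2R, bases 13408042 to 13409887 and 13412769 to 13414620, both on the minus strand) are 2882 bases apart. *CG18278* had 71.5, 92.0 and 124 normalized counts in the controls and 4.61, 3.20 and 0.930 in *Alk-YS*. *CG30059* had 101, 94.0 and 92.5 in the controls and 3.69, 12.8 and 15.8 in *Alk-YS*. The libraries did not rank alike for the pair, since *Alk-YS* replicate 3 was the lowest for the first gene and the highest for the second. The 6 other tested genes with a sulfatase domain had a median log2 fold change of -0.25.

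*CG6660* carries the domain of the fatty acid elongases, which extend the chains of very long fatty acids. Its level was 223, 139 and 157 normalized counts in the controls and 10.1, 18.15 and 0 in *Alk-YS*. It overlaps the gene *klg* on the same strand, and *klg* had a mean of 2701 ± 601 (SD, n = 3) in the controls and 3301 ± 151 in *Alk-YS*. Of 8 other tested elongase-domain genes, 1 (*Elo68alpha*) was called lower and 0 higher by limma, where 1.71% and 1.26% of all genes tested were. Their median log2 fold change was 0.009. *CG34057*, with the domain of Fringe-type glycosyltransferases, had 113, 94.0 and 104 normalized counts in the controls and 10.1, 8.54 and 13.0 in *Alk-YS*. Both groups were tight for this gene, and the 7 other tested genes with that domain had a median log2 fold change of 0.055.

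Aldehyde oxidases are molybdenum-cofactor enzymes that oxidise aldehydes to acids, and 4 of their genes stand side by side on 3R. The outer genes, *AOX1* and *AOX4*, were members and are 11336 bases apart. *AOX1* had 191, 213 and 244 normalized counts in the controls and 34.1, 71.5 and 48.4 in *Alk-YS*. *AOX4* had 77.0, 127 and 174 in the controls and 6.45, 2.14 and 17.7 in *Alk-YS*. Both genes were lowest in control replicate 1 and highest in control replicate 3. Between them, *AOX2* was at most 8.86 in any library and was not tested. *AOX3* had 497, 532 and 745 normalized counts in the controls and 264, 516 and 438 in *Alk-YS*, so that the groups overlapped, with a log2 fold change of -0.57 ± 0.26 (SE) at an adjusted p of 0.397 by limma. The related xanthine dehydrogenase gene *ry* and the cofactor gene *mal* were not called either, with log2 fold changes of -0.13 and -0.01.

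*Jheh3* encodes a juvenile hormone epoxide hydrolase, 1 of the enzymes that inactivate this insect hormone. It differed least among the members by ratio of means, with 333, 352 and 339.6 normalized counts in the controls and 142, 139 and 148 in *Alk-YS*. Replicates of either group were within 20 normalized counts of each other. Its 2 neighbours on 2R, *Jheh1* and *Jheh2*, were not called by limma. Their log2 fold changes were -0.31 ± 0.25 and -0.09 ± 0.12 (SE), with adjusted p of 0.702 and 0.851. *CG11852*, now named *Jhbp7* after the juvenile hormone binding protein family, had 286, 381 and 282 normalized counts in the controls and 52.6, 92.9 and 116 in *Alk-YS*.

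*CG8665* encodes 10-formyltetrahydrofolate dehydrogenase, a folate enzyme with an aldehyde dehydrogenase domain. Its control libraries differed more than those of any other member, with 450.1, 203 and 44.3 normalized counts in replicates 1, 2 and 3 against 6.45, 4.27 and 1.86 in *Alk-YS*.

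The remaining enzymes were spread over several classes. *Ady43A*, now named *Adk3*, encodes an adenosine kinase, which turns adenosine into AMP. It had 1289, 1249 and 1197 normalized counts in the controls and 437, 521 and 459 in *Alk-YS*. The other adenosine kinase gene, *AdenoK*, differed by 0.06 ± 0.13 (SE) on the log2 scale, with an adjusted p of 0.909 by limma. *CG9150*, a short-chain dehydrogenase, and *CG11029*, with a GDSL lipase domain, had control means of 113 and 87.3 normalized counts and *Alk-YS* means of 16.0 and 13.1.

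There were 3 members with a trypsin domain. *CG34437* and *CG43124* lie 18946 bases apart on 3R. *CG34437* had 59.4, 91.0 and 68.9 normalized counts in the controls and 1.84, 12.8 and 11.2 in *Alk-YS*. *CG43124* had 88.0, 118 and 178 in the controls and 12.9, 24.6 and 28.8 in *Alk-YS*. The gene next to *CG43124*, *CG43125*, was low everywhere, with a control mean of 39.7 ± 22.8 and an *Alk-YS* mean of 6.37 ± 2.05 (SD, n = 3), and its adjusted p of 0.0561 by limma did not pass. The third is *scaf*, which encodes Scarface, a secreted serine protease homologue without catalytic activity that is a target of JNK signalling. It was far more abundant, with 778, 882 and 816 normalized counts in the controls and 306, 286 and 369 in *Alk-YS*. *puc*, the JNK phosphatase gene and another target of that pathway, differed by 0.02 ± 0.15 (SE) on the log2 scale, with an adjusted p of 0.981 by limma. Of 84 other tested genes with a trypsin domain, 2 were called lower and 1 higher by limma, where 1.71% and 1.26% of all genes tested were.

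Of the 4 members that act in the nucleus or in protein turnover, 3 had a control mean of at least 1000 normalized counts and *Ada1-1* one of 212. *Elp2* encodes a core subunit of Elongator, the complex that modifies wobble uridines of tRNAs. It had 1898, 2004 and 2529 normalized counts in the controls and 689.7, 688 and 649 in *Alk-YS*. The 3 *Alk-YS* libraries were close together, while control replicate 3 stood above the other controls. The core subunit gene *Elp3* had a log2 fold change of 0.08 ± 0.14 (SE) and was not called by limma.

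*CG18600*, now named *Polr1E*, encodes a subunit of RNA polymerase I, which transcribes the ribosomal RNA genes. It had 1363, 1509 and 1543 normalized counts in the controls and 594, 572 and 611 in *Alk-YS*. The polymerase I subunit genes *RpI1*, *RpI135* and *RpI12* had log2 fold changes of -0.14, -0.11 and -0.26, with adjusted p between 0.792 and 0.87 by limma. *Roc2* encodes a RING protein that works with cullins in ubiquitin ligases. Its level was 1309.5, 1515 and 1029 normalized counts in the controls and 219, 186 and 169 in *Alk-YS*, and its ratio by the rule was the largest among members with a control mean of at least 1000. Its cullin partner *Cul5* had a log2 fold change of 0.22 ± 0.08 (SE, adjusted p of 0.292) and the related RING gene *Roc1a* one of 0.08 ± 0.09. *Roc2* spans bases 11652756 to 11679354 of 2R and overlaps 3 genes on the other strand. One of them, the trehalose transporter gene *Tret1-1*, had a mean of 523 ± 153 in the controls and 688 ± 117 (SD, n = 3) in *Alk-YS*, and reads of overlapping genes could have been shared in counting.

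*Ada1-1* encodes a form of Ada1, a subunit of the SAGA histone acetyltransferase complex, and stands in a stretch of 2L where genes are duplicated. It had 262, 210.0 and 163 normalized counts in the controls and 52.6, 36.3 and 45.6 in *Alk-YS*. Its near-identical copy *Ada1-2*, 2755 bases away, had 486, 565 and 411 in the controls and 221, 206 and 232 in *Alk-YS*. The log2 fold change of *Ada1-2* was -1.13 ± 0.15 (SE) with an adjusted p of 0.00875 by limma. *Qtzl*, which lies 86 bases from *Ada1-1*, had 352, 381 and 325 normalized counts in the controls and 165, 164 and 153 in *Alk-YS*, with a log2 fold change of -1.13 ± 0.13 at an adjusted p of 0.00509. Reads of near-identical copies can be assigned to either gene or dropped, so how the difference is divided among these copies is uncertain. Other genes here did not pass the test. *CG18789* had a log2 fold change of 0.03 ± 0.18, *CG18787*, which overlaps *Ada1-1* on the other strand, one of -0.04 ± 0.23, and *escl*, just outside the run of copies, one of 0.33 ± 0.14, with adjusted p between 0.366 and 0.974.

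A pair of members encode proteins of signalling at the membrane. *otk* (*off-track*) encodes a receptor of the kinase-like PTK7 class that lacks kinase activity and is known from Wnt and plexin signalling in axons. It was the second most abundant member by normalized count, with 6668, 5429 and 5990.4 in the controls and 2246, 1842 and 2365 in *Alk-YS*. Its paralog *otk2*, a neighbour on 2R, had 832, 630.1 and 947 normalized counts in the controls and 805, 742 and 812 in *Alk-YS*, with a log2 fold change of -0.01 ± 0.15 (SE) at an adjusted p of 0.989. *inaD* encodes the PDZ scaffold that assembles the phototransduction complex in photoreceptors. It had 110.0, 113 and 103 normalized counts in the controls and 24.0, 39.5 and 30.7 in *Alk-YS*. Its partners *inaC* and *norpA* had log2 fold changes of -0.18 and -0.04 and were not called, and *trp* was at most 4.61 normalized counts in any library.

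**Figure D2:**
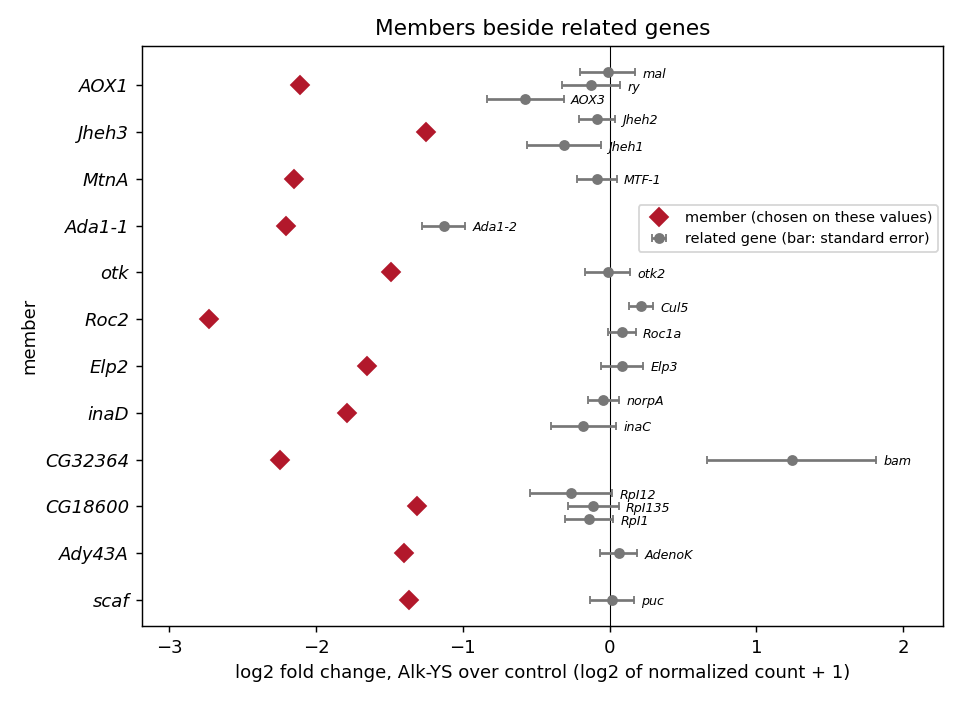
Log2 fold change, *Alk-YS* over control, of 12 members (red diamonds, chosen on these values) and of the tested genes related to each (grey circles, bar: standard error). The related genes lie near 0, apart from *Ada1-2* at -1.13, which was called, and *AOX3* at -0.57 and *bam* at 1.24, which were not.

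Over the 12 members with a chosen relative, 19 related genes were tested, and 1 was called lower and 0 higher by limma, with a median log2 fold change of -0.09. At an unadjusted p under 0.05, 1 was lower and 1 higher, and neither edgeR nor DESeq2 called any higher. Over all 9668 genes tested, 1.71% were called lower and 1.26% higher. These related genes were picked after the members were known, by complex, paralogy or pathway.

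The extracellular and secreted members had control means between 165 and 316 normalized counts. *stl* (*stall*) encodes an ADAMTS-family metalloprotease known from ovary development. Its controls were nearly equal, at 191, 191 and 192 normalized counts, and its *Alk-YS* libraries were at 65.5, 24.6 and 73.5. *Mur2B*, a mucin-related gene spanning a long stretch of X that includes *br*, had 162, 171 and 163 in the controls and 29.5, 63.0 and 35.3 in *Alk-YS*. *br* itself was at 21360 ± 1049 and 22000 ± 139 (SD, n = 3) in the controls and in *Alk-YS*. *CG6055*, with a C-type lectin domain, had 190.4, 144 and 290.4 normalized counts in the controls and 17.5, 9.61 and 27.9 in *Alk-YS*.

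*Sgs4* encodes a glue protein that salivary glands make late in larval life. Like *CG8665*, it had controls that spanned more than 3-fold, at 226, 539 and 94.5 normalized counts, while its *Alk-YS* libraries were at 27.7, 12.8 and 41.9. The controls ranked in the order of the fat body sum, which was highest in replicate 2 and lowest in replicate 3, whereas the *Alk-YS* libraries did not. The 9 salivary gland genes in the table, *Sgs4* included, summed to 651, 588 and 192 in the controls and 222, 83.3 and 278 in *Alk-YS*. The groups overlapped, and *Sgs4* alone supplied most of the sum in control replicate 2. The 5 other tested genes of this list did not share its fall. *Sgs3*, *Sgs5* and *Sgs7* were higher in *Alk-YS*, by 0.64, 0.85 and 0.53 on the log2 scale. *Sgs8* and *Eig71Ee* were lower, at -0.36 and -0.27. Standard errors were between 0.63 and 1.2, and limma called none of the 5. Without the 2 genes whose controls spanned more than 3-fold, 41 members were left.

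**Figure D3:**
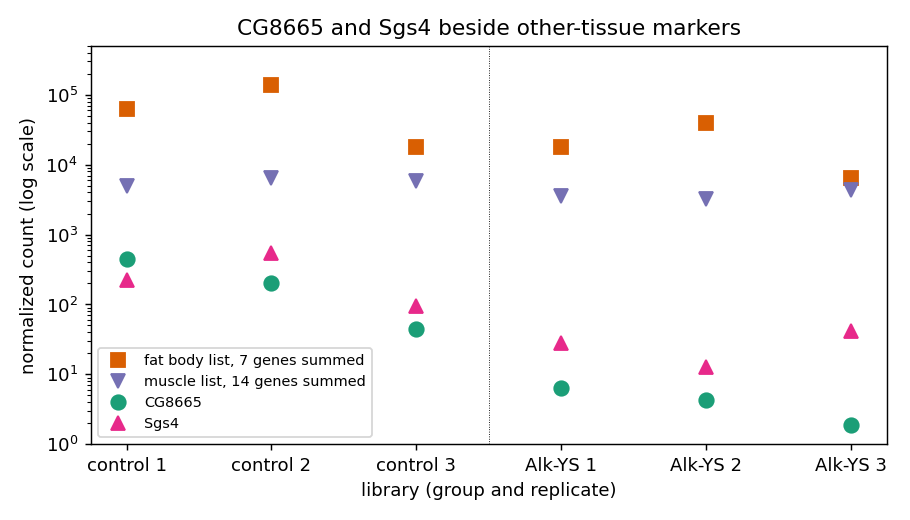
Normalized count, on a log axis, of *CG8665*, *Sgs4* and the summed fat body and muscle lists in each of the 6 libraries. Control replicate 3 was lowest of the controls for *CG8665* (44.3), *Sgs4* (94.5) and the fat body sum (18060), but not for the muscle sum (5868).

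*MtnA* encodes a metallothionein, a small cysteine-rich protein that binds copper and other metals. It was the most abundant member and made up between 27.6% and 33.0% of the members' reads in the controls and between 15.3% and 29.5% in *Alk-YS*. It had 8543, 11304 and 8612 normalized counts in the controls and 1215, 2594 and 3009 in *Alk-YS*. *Alk-YS* replicate 1 stood below the other mutant libraries. On the length-scaled FPKM scale, *MtnA* averaged 652 ± 108 in the controls and 156 ± 64.7 (SD, n = 3) in *Alk-YS*, above *Roc2* at 81.5 ± 15.5 and *otk* at 60.8 ± 6.22 in the controls. The metallothionein genes *MtnB*, *MtnD* and *MtnE* were each below 10 normalized counts in every library. *MTF-1*, which encodes the metal-sensing factor that activates this family, had a log2 fold change of -0.09 ± 0.14 (SE), at an adjusted p of 0.87 by limma.

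A pair of members is known from the male germline. *Mst89B*, a male-specific transcript, had 67.1, 64.0 and 52.2 normalized counts in the controls and 8.30, 2.14 and 0.930 in *Alk-YS*. *CG32364*, now named *tut* (*tumorous testis*), encodes an RNA-binding protein that works with Bam in the testis, and had 57.2, 50.005 and 98.4 in the controls and 7.38, 22.4 and 13.0 in *Alk-YS*. *bam* was low, at 15.3 ± 10.3 and 32.2 ± 7.96 (SD, n = 3), and was not called.

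The 15 members without an assigned role had control means from 50.6 to 2041 normalized counts and a median ratio of means of 4.18. Besides *CG33509* and *CG7299*, the largest ratios by the rule were those of *CG33468* and *CG9184*. *CG33468* had 50.6, 53.0 and 48.2 normalized counts in the controls and 7.38, 7.47 and 4.65 in *Alk-YS*. *CG9184* had 51.7, 90.0 and 79.7 in the controls and 9.22, 7.47 and 0.930 in *Alk-YS*. Another 2, named here after their values were seen, were abundant. *CG44325* had 1938, 2348 and 1836 normalized counts in the controls and 716, 607.5 and 783 in *Alk-YS*, and *CG9344* had 1946, 2296 and 1555 in the controls and 587, 496 and 686 in *Alk-YS*. On the FPKM scale *CG9344*, a short gene, averaged 196 ± 37.6 (SD, n = 3) in the controls, second to *MtnA* among the members.

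The members nearest the limit of the rule were *scaf*, *CG30379* and *CG32364*, with ratios of 2.09, 2.05 and 2.01. The nearest genes outside it were *Qtzl*, *CG14511* and *CG42260*, with 1.94, 1.92 and 1.91. *CG30379* had 161, 121 and 151 normalized counts in the controls and 39.6, 56.6 and 40.0 in *Alk-YS*. *CG14511* had 138, 151 and 142 and 69.2, 51.2 and 53.9. The ratios on the 2 sides of the limit are close.

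On the chromosomes, 15 of the 43 members (34.9%) were on arm 2R, which also carries *Alk* and holds 19.9% of the protein-coding genes that passed the control limit. Arms 2L and 3R had 9 members each, and 3L and X had 5 each. Of the 33 genes that met the limits in the other direction, 27.3% were on 2R. No member lay within 2 Mb of *Alk*, where 4.1% of the genes are. Of the 14 genes that met the limits and were set aside by name, 4 did, so with them the 2 Mb would not be empty. Of the 33 genes of the other direction, 2 lay within 2 Mb. Within 1 Mb, where 2.2% of the genes are, no gene of these sets was found. Within 5 Mb there were 7 members (16.3%, against 9.43% of the genes) and within 7 Mb 12 (27.9%, against 13.1%). The nearest was *CG33468*, 2.03 Mb away. These are counts of genes that share chromosomes and, in part, neighbours, and they are given without a test.

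**Figure D4:**
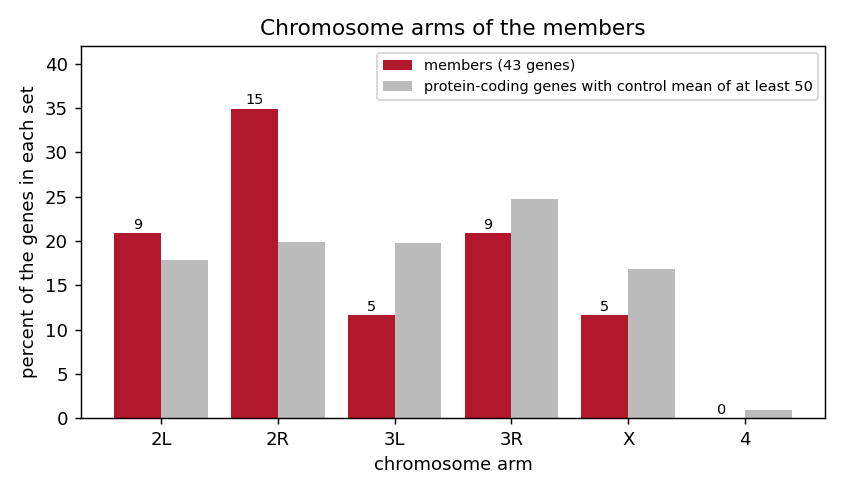
Percent of the 43 members (red, with the number of members above each bar) and of the 8227 protein-coding genes with a control mean of at least 50 (grey) on each chromosome arm. Arm 2R held 34.9% of the members and 19.9% of the other set, and 3L held 11.6% and 19.8%.

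Some members had another member close by. Within 20 kb this held for 6 of the 43 (14%), against 2.83% of the other genes that passed the control limit, and within 50 kb for 8 (18.6%, against 5.1%). The pairs were the 2 sulfatase genes, *AOX1* and *AOX4*, *CG34437* and *CG43124*, and *stl* and *inaD*, which are 39695 bases apart.

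Genes beside the members were next compared, since the rule did not choose them. Within 10 kb of a member lay 222 other genes, of which 166 were tested by limma. Of these, 5 (3.01%) were called lower and 1 (0.602%) higher, against 1.71% and 1.26% of all genes tested, members included. One of the 5 was *ppk13*, which met the limits itself. Their median log2 fold change was -0.03, compared with 0.01 for all genes. None of the 16 tested genes that overlap a member was called in either direction by limma, edgeR or DESeq2, and none had an unadjusted p under 0.05. Of the genes from 10 to 50 kb away 2.45% were called lower, and of those further off 1.2%.

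The called neighbours stood at 3 places, around *CG33509*, around *Ada1-1*, and around *stl* and *inaD*. At the last of these *CG42260*, 9571 bases from *stl*, had 1636, 1546 and 1127 normalized counts in the controls and 525, 433 and 587 in *Alk-YS*. Its log2 fold change was -1.47 ± 0.17 (SE) with an adjusted p of 0.0052 by limma. *CG3649*, 7777 bases from *inaD*, had 255, 276 and 288 in the controls and 141, 137 and 154 in *Alk-YS*, with a log2 fold change of -0.92 ± 0.14 at an adjusted p of 0.0139. It no longer passed without *Alk-YS* replicate 1, *Alk-YS* replicate 3, control replicate 1 or control replicate 2, each left out alone, and its adjusted p then reached 0.0709.

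On the other side of *inaD* a gene rose. *fd59A*, which encodes a forkhead transcription factor, lies 9365 bases away and had 143, 179 and 337 normalized counts in the controls and 882, 1133 and 924 in *Alk-YS*. Its log2 fold change was 2.24 ± 0.29 (SE) with an adjusted p of 0.00872 by limma, and 0.0523 without control replicate 2. *RpL23*, which overlaps *inaD* on the other strand, had a log2 fold change of -0.16 ± 0.12, at an adjusted p of 0.682. *CycB* and *blw*, beside *stl*, had log2 fold changes of 0.21 and 0.25 and were not called. *Ada1-2* also lost its call without control replicate 1, at an adjusted p of 0.0522, while *Qtzl* and *CG42260* kept theirs in all 16 alternative fits.

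**Figure D5:**
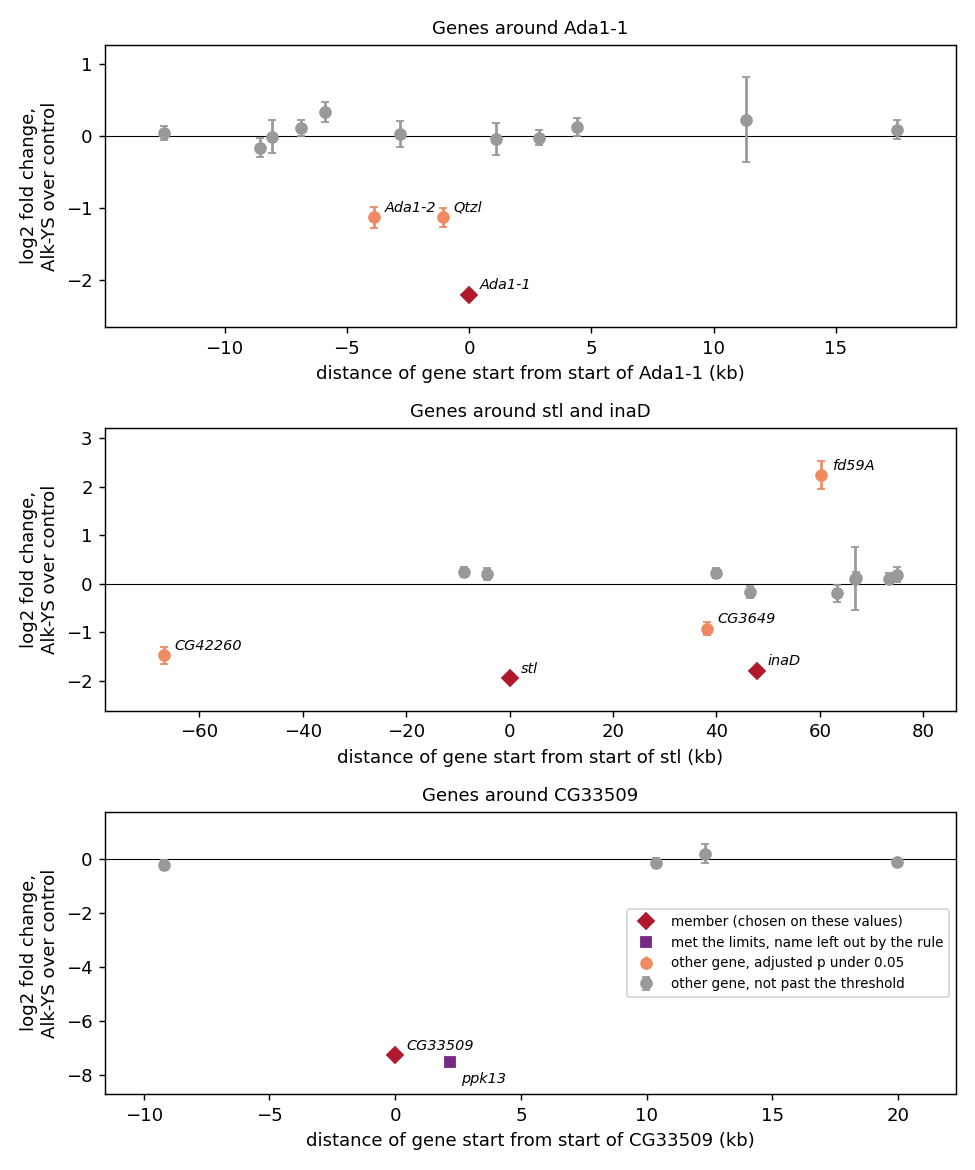
Log2 fold change, *Alk-YS* over control, of the tested genes around *Ada1-1*, around *stl* and *inaD*, and around *CG33509*, against the distance of each gene's start from that of the first-named member in kb. Red diamonds are members and the purple square is *ppk13*, without error bars because their values met the limits. Orange circles are other genes past the threshold and grey circles those not past it (bar: standard error). Around *Ada1-1* and around *stl* and *inaD*, genes near 0 lie between the lower ones. Between *CG33509* and *ppk13* there is no tested gene.

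In the tissue and pathway lists, 132 genes that are no members were tested by limma, and 5 were called lower and 0 higher, while at an unadjusted p under 0.05 there were 19 and 10, edgeR called 5 and 0, and DESeq2 12 and 5. The shares over all genes tested by limma were 1.71% lower and 1.26% higher. Among the 5 were *Fbp2* of the fat body, the myosin light chain genes *Mlc1* and *Mlc2* of muscle, and *NimC1* of hemocytes, all of them names that the rule sets aside. Of the 16 genes listed for the Alk receptor, its ligand and ERK feedback, none was called by limma in either direction, at an unadjusted p under 0.05 there were 0 lower and 2 higher, edgeR called none and DESeq2 called 1 higher. The 10 gene families left out of the rule by name had 140 tested genes, of which 14 were called lower and 2 higher by limma. Of all genes tested 1.71% were lower and 1.26% higher, and 11 genes of these families met the limits of the rule themselves.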

How the data were processed

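The authors aligned paired-end reads to Ensembl BDGP6 with HISAT2 2.0.5 and counted and compared genes with featureCounts 1.5.0-p3 and DESeq2 1.20.0, as given in the submitters' processing notes. Strandedness and annotation release were not given in the sources used here, so reads of overlapping genes may have been shared between them. In the deposited table of the comparison there is a signal value per library, the gene's read count divided by a size factor, beside the authors' log2 fold changes and p-values, which were not used. A second deposited table holds FPKM. Reads were recovered by dividing each library by its smallest value above 0. An automatic check of this accepted 5 libraries and could not judge control replicate 2, whose step is close to 1. Tests on reads with edgeR 4.0.16 and DESeq2 1.42.0 were therefore alternatives only.

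The 9668 genes that averaged 10 normalized counts or more entered limma 3.58.1 under R 4.3.3 (lmFit and trended eBayes, two-sided) as log2 values after adding 1. P-values were adjusted by the Benjamini-Hochberg method, and genes were called at an adjusted p under 0.05. This scale understates changes of low genes. The tests were also run on simulated data, and the outcome is not given here. The labels speak of biological replicates, and p-values measure the spread between these libraries. Flanking genes lie within 10 kb of a member. The members and lists were chosen with earlier results of these data known. Genes named are the 12 members with the largest ratio, members with a symbol, members within 10 kb of another or with at most 3 reads in each *Alk-YS* library, the 3 genes on each side of the limit, and called flanking genes. Related genes, list genes and others were named beside them. Positions are those of the deposited table, and all 43 members had the same position in the supplied BDGP6 annotation. A fold against at most 3 reads per library is a lower bound that covers counting error only. Some single genes are not reported here.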

Additional observations from a re-analysis of the deposited data

How the results depend on the processing

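The number of members depended on the limits of the rule. It was 70 with a minimum control mean of 20, 90 with a fold limit of 1.5 and 11 with a limit of 4, and from 46 to 69 when a library was left out, 69 being without control replicate 3. Leaving out a library cannot lower a gene's ratio, because the rule takes the lowest control and the highest *Alk-YS* library. Only the limit on the control mean can then remove a gene, so the direction of this change was largely fixed in advance. Other offsets, scalings, the FPKM table and a minimum of 100 gave between 31 and 44, and 41 remained under an alternative chosen after seeing the data, without genes whose controls span over 3-fold. The 5 flanking genes called lower became 13 with DESeq2, 9 with the FPKM table, 3 in a window of 5 kb and 13 in one of 50 kb, and from 3 to 7 without a library, 3 being without control replicate 1. Over all genes, DESeq2 called 353 lower in place of 165, and leaving out a library gave 52 to 180 (80 and 79 without *Alk-YS* replicates 1 and 3, and 55 and 52 without control replicates 1 and 2). The tissue and pathway lists had 3 to 8 genes called, both directions counted together, without a library (3 without *Alk-YS* replicate 1 or control replicate 1, 8 without control replicate 3). With a replicate block 8 flanking genes and 181 of all genes were called lower, and 14 list genes were called in either direction. Same-numbered libraries had correlations of -0.121, 0.354 and 0.408 in their deviations, so the numbers were not taken to pair them, and 2 of the 3 control libraries correlated best with their own number. The cause of these differences was not tested. Promoter motifs were not run, for want of promoter sequences. At these depths members with control means near 50 rest on few reads.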
